A study of Homo sapiens with 28 samples.

Results

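Chromatin accessibility of 6 multiple myeloma cell lines with a reported lesion of the noncanonical NF-kB pathway was compared with that of 13 other myeloma lines. The lesion lines were KMS11, KMS20, L363, LP1, RPMI8226 and U266, which are listed together for loss of TRAF3, loss of BIRC2 and BIRC3, or rearrangement of MAP3K14. The other lines were H1112, Karpas620, KMS12BM, KMS12PE, KMS21BM, KMS26, KMS27, KMS34, MM1S, OCIMY5, OPM2, PCM6 and XG-6. Lesion status was taken from this list and not from the sample labels, and the list does not say which line carries which lesion. Among 28 ATAC-seq libraries, 22 were untreated, and 3 untreated lines (KMS18, KMS28 and PE1) were left out of both sides. ATAC-seq uses the Tn5 transposase to cut and tag open chromatin, so a high count in a region means that its DNA was accessible. All 19 lines compared were human, grown in RPMI medium with serum and given no treatment. The lines labelled as controls of the lenalidomide experiment were untreated too. Each line was assayed once, so every p-value measures the spread between lines and no error within a line is known. The lines are clonal tumour lines that differ in many lesions beside those of this pathway, and the effect of one lesion cannot be told apart from that of another or of the line.

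The noncanonical NF-kB pathway runs through the kinase NIK, the product of MAP3K14. In resting cells a complex of TRAF2, TRAF3 and the ubiquitin ligases cIAP1 (BIRC2) and cIAP2 (BIRC3) has NIK degraded. Ligands such as BAFF (TNFSF13B) and CD40 ligand act through their receptors to take this complex away from NIK, which then activates IKK-alpha (CHUK) so that p100, the product of NFKB2, is cut to p52 and enters the nucleus with RELB. Plasma cells and their tumours depend on signals of this kind from the bone marrow, and lesions that free NIK from control are known in myeloma.

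The groups did not differ in depth beyond the spread between lines. Lesion libraries held 1960820 to 4653969 counts in regions (median 2239819) and other libraries 1602855 to 5564534 (median 2882585). Between 18943 and 54387 regions were peaks in the lesion lines and between 22738 and 58983 in the other lines. Two-sided exact permutation tests over all 27132 ways to choose 6 of 19 lines gave p = 0.959 for log2 total counts, p = 0.711 for the number of peaks and p = 0.55 for the percentage of counts in promoters, which was 53.6% ± 5.52 (SD, n = 6) in lesion and 52% ± 5.22 (SD, n = 13) in other lines. Adjusted over these 3 tests, each p was 0.959. The mean Pearson correlation of log2 accessibility over regions was 0.587 over 15 pairs of lesion lines, 0.552 over 78 pairs of other lines and 0.572 over 78 pairs across the groups. KMS12BM and KMS12PE, a pair of lines from the same patient, had a correlation of 0.71. PE1, which was left out, correlated with KMS34 at 0.918, within the range of 0.912 to 0.949 of a line and its own lenalidomide library. All plasma cell markers with a region had counts in some line, and their summed accessibility spanned 249 to 368 CPM (counts scaled to a common library total) in lesion lines and 188 to 396 CPM in other lines. B cell markers spanned 125 to 264 and 150 to 294 CPM, T and NK cell markers 34.7 to 124 and 32.1 to 145 CPM, and myeloid and erythroid markers 36 to 84.1 and 12 to 96.1 CPM, so the groups overlapped for every list.

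The DNA under several of these regions is shown first, because the same short sequence recurs at pathway genes and at the regions outside promoters described further on. The κB consensus is a 10-base sequence bound by dimers of Rel proteins. In the 300 bases at the centre of each region it was found, on either strand, in 11.8% of the 52149 regions tested, in 14.2% of the promoter regions and in 10.5% of the others. It was found in 17 of 45 regions at the starts of pathway genes (37.8%) and in 18 of 51 at the starts of NF-kB target genes (35.3%). A match is a description of the letters and not a binding site shown in these cells. The following stretches are from GRCh37, on the strand of the gene, 5′ to 3′, with matches to the κB consensus in capitals. These matches were not limited to the central 300 bases used for the shares above. Those printed for RELB and TRAF2 lie outside them. The first 3 lie just before the start of BIRC3 (chr11:102187963-102188142, plus strand), RELB (chr19:45504516-45504695, plus strand) and TNFAIP3 (chr6:138188171-138188350, plus strand), and show how pairs of matches sit close to promoters of the pathway's own genes. The last 2 lie within TRAF2 (chr9:139796951-139797130, plus strand) and in an intron of RHEB (chr7:151170175-151170354, minus strand), and belong to regions outside these starts whose accessibility is given further on. Both of these regions also carry a promoter annotation in the deposited data. They are therefore not among the regions outside promoters described further on.
BIRC3 promoter: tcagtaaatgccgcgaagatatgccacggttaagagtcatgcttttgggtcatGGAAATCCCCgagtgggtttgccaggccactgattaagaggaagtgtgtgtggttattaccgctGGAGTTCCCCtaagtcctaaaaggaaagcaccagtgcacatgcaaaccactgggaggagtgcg
RELB promoter: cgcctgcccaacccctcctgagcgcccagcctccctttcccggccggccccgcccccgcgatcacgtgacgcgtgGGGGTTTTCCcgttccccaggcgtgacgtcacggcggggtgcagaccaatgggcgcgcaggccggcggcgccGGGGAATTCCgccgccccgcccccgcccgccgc
TNFAIP3 promoter: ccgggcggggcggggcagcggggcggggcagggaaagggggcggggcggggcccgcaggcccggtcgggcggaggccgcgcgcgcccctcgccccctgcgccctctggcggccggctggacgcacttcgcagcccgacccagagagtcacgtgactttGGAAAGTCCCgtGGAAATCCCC
TRAF2 intragenic region: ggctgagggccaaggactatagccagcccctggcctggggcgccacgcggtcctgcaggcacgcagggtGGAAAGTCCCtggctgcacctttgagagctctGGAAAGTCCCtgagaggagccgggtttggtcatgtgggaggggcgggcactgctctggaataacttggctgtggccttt
RHEB intronic region: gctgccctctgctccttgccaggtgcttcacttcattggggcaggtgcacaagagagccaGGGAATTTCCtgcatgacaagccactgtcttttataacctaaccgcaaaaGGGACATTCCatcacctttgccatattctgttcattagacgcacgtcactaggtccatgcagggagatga

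Across the genome no region separated the groups past the test threshold. Of 154985 regions, 52149 had enough counts to be tested, and 0 (0%) passed an adjusted p of 0.05 in edgeR's quasi-likelihood test, the smallest adjusted p being 0.999743. Without adjustment, 2109 regions had p below 0.05, 756 of them higher in lesion lines (1.45%) and 1353 lower (2.59%), 4.04% together. DESeq2 passed 1 region. Counts summed over all regions within 50000 bases of each gene's start gave 28601 loci, of which 0 (0%) passed, with a smallest adjusted p of 0.852. Of these loci 576 were higher (2.01%) and 836 lower (2.92%) at an unadjusted p below 0.05, and DESeq2 passed 2. The median standard error of a region's log2 fold change was 0.54, so a moderate difference between groups was not detectable in a typical region.

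Of the 47 genes in the 6 pathway lists, 35 had a start region that could be tested, meaning the region at or within 2500 bases of the annotated gene start. None of the 35 passed in edgeR (0 also at an unadjusted p below 0.05), against 1.38% of protein-coding start regions higher and 2.51% lower at that unadjusted p. Their median log2 fold change was 0.12, beside 0.02 over all 12047 protein-coding start regions. At the level of loci 39 genes were tested and 0 passed. At an unadjusted p below 0.05, 3 were higher (TRAF2, OTUD7B and TNIP1) and 1 was lower (BIRC2), or 7.69% and 2.56%, beside 2.01% and 2.92% of all loci. The median over the 39 loci was 0.01, beside -0.03 over all loci.

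**Figure D1:**
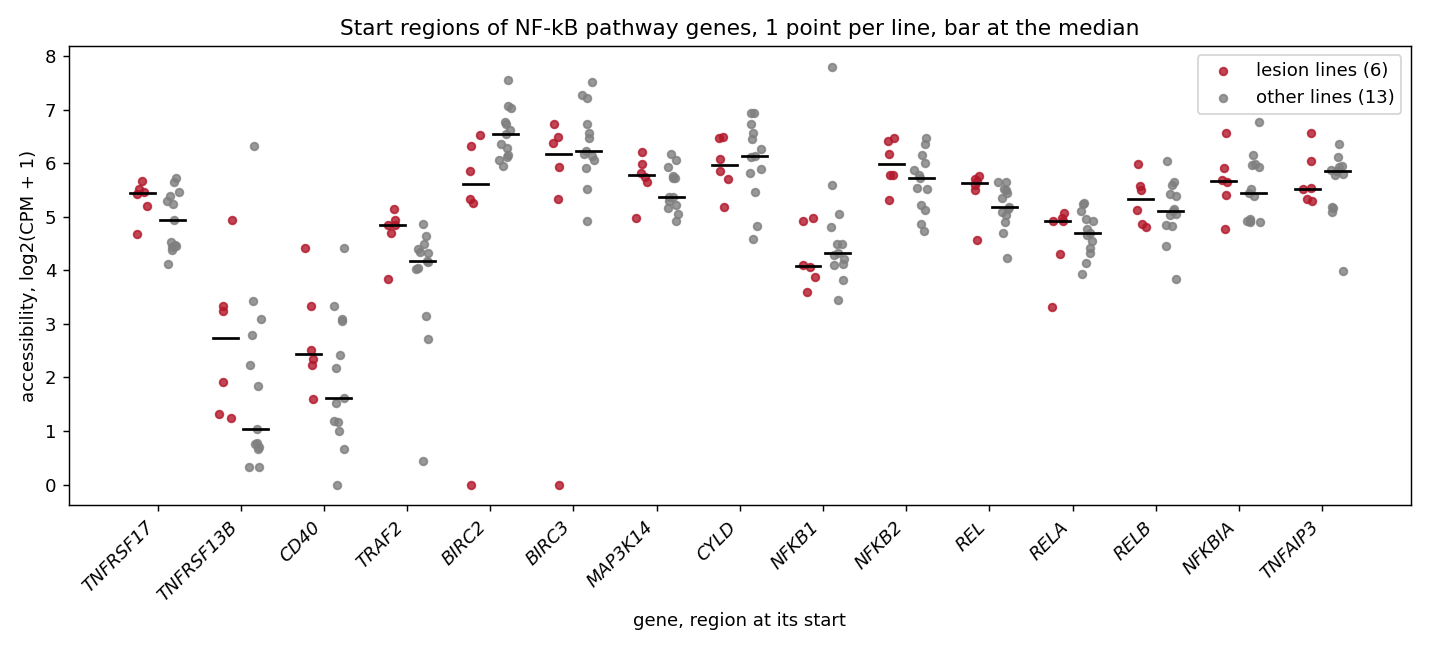
Accessibility, as log2(CPM + 1) with 1 point per line and a bar at the median, of the start regions of 15 pathway genes in 6 lesion lines (red) and 13 other lines (grey). The groups overlap at every gene, KMS20 is at 0 for BIRC2 and BIRC3, and OCIMY5 stands above the other lines at NFKB1.

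Among the regulators of NIK, the start regions of BIRC2 and BIRC3 held no count in 1 lesion line, KMS20. At the start of BIRC2 (chr11:102217302-102218820), which encodes cIAP1, lesion lines had 0, a median of 48.1 and up to 91.6 CPM, and other lines 61, 92.9 and 188 CPM. None of the 6 lesion lines exceeded the median of the other lines, although LP1 (91.6 CPM) and L363 (79 CPM) lay within their range. Lesion lines were lower by a log2 fold change of -1.05 (SE 0.55, adjusted p = 0.999743) and -0.78 without KMS20. The regions within 2500000 bases on each side had the same median of -1.05, and with local offsets for these surroundings the value at BIRC2 was -0.31. At the start of BIRC3 (chr11:102187672-102188648), which encodes cIAP2 and is itself induced by NF-kB, lesion lines had 0, a median of 71.2 and up to 106 CPM and other lines 29.4, 73.6 and 183 CPM, a log2 fold change of -0.62 (SE 0.58, adjusted p = 0.999743). Without KMS20 it was -0.35, and with local offsets it turned to 0.13.

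KMS20 accounted for the zeros. It had 0 counts at the starts of both BIRC2 and BIRC3 in a library of 4653969 counts. Taking 3 counts as the most that a count of 0 allows, its level was under 0.645 CPM, at least 124-fold below the median of the other 18 lines at BIRC2 (80 CPM) and at least 121-fold below it at BIRC3 (77.9 CPM). The lowest of those 18 lines had 37.2 CPM at BIRC2 and 29.4 CPM at BIRC3. The loss of signal reached well past the genes. In bins of 200 kb it ran from -3600 to 800 kb relative to the start of BIRC3, a stretch of 4.4 Mb with 22 protein-coding genes, where KMS20 had 182 counts over 262 regions. That is 39.1 CPM, while the 18 lines had 471 to 2960 CPM with a median of 1688, a ratio of 0.0232. Around both starts and including them, 14 regions in a row (chr11:102150418-102239579) held no count where 1003 were expected from the other lines. A region within BIRC2 further from its start (chr11:102245149-102245858) did hold 26 counts in KMS20, where 17.5 were expected from the other lines. At 5.59 CPM, KMS20 was the highest lesion line there. KMS18, which was left out of both groups, was also low within 100 kb of the BIRC3 start, at 0.0594 times the median line. U266 was at 0.517 times the median at BIRC3 and 0.474 times at BIRC2, and among other lines KMS34 was at 0.599 at BIRC3. Within the 4.4 Mb stretch U266 also had 13 regions in a row (chr11:98934760-99050152) with no count, where 328 were expected. Copy number was not measured, so lost DNA and closed chromatin cannot be told apart for any of these lines.

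**Figure D2:**
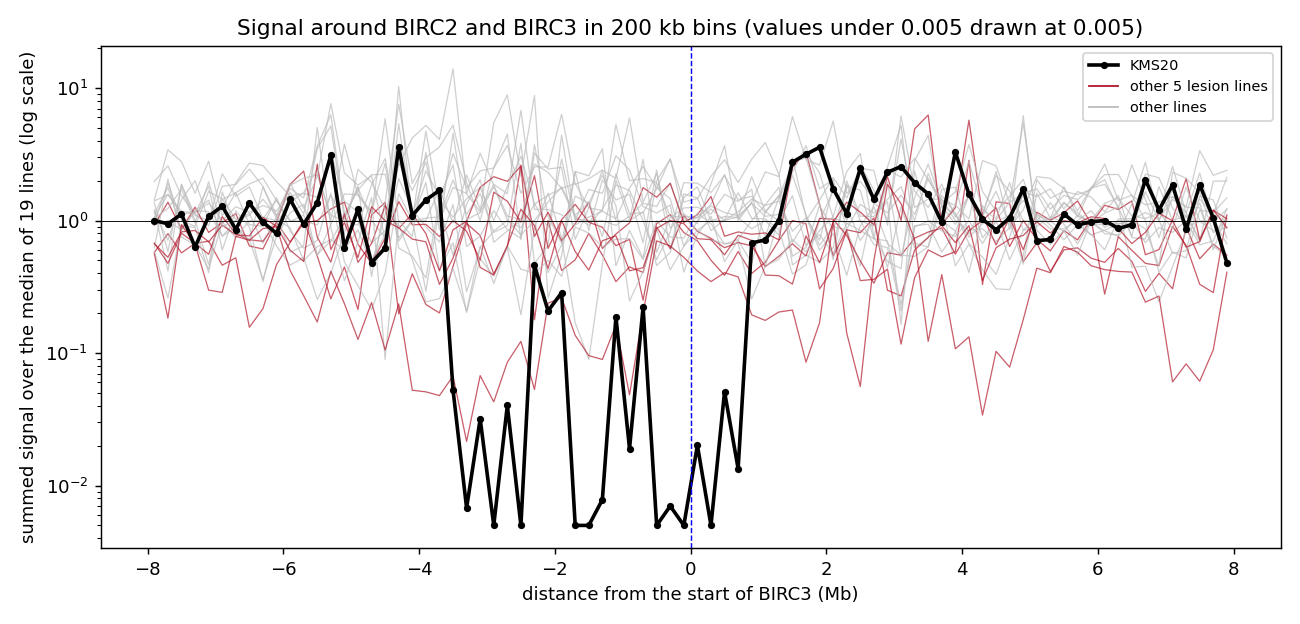
Summed signal in 200 kb bins over 8 Mb on each side of the start of BIRC3, as a ratio to the median of 19 lines on a log scale, for KMS20 (black), the other 5 lesion lines (red) and the other lines (grey), with values under 0.005 drawn at 0.005. KMS20 lies under 0.333 times the median in 21 of 22 bins from -3600 to 800 kb and among the remaining lines outside this stretch.

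TRAF3, the adaptor that bridges NIK to TRAF2, was weakly accessible at its annotated start in all 19 lines, and the region there was not tested because of low counts (at most 3.47 CPM in lesion and 7.37 CPM in other lines). A region ending before it, centred at -2472 bases from the start, had 2.04, 8.18 and 12.2 CPM (lowest, median, highest) in lesion lines and 1.3, 9.67 and 24.2 CPM in other lines, a log2 fold change of -0.32 (SE 0.50, adjusted p = 0.999743). Signal summed over 10 regions of TRAF3 spanned 8.67 CPM in L363 to 59.1 CPM in KMS20 among lesion lines, and 13 CPM in KMS34 to 110 CPM in KMS12BM among the others. The lowest lesion lines were thus L363 and RPMI8226 (17 CPM), close to the lowest other line, and the groups overlapped. The last of these 10 regions, in an intron 124191 bases from the start (chr14:103367429-103368525), had 0 CPM in RPMI8226, a median of 3.79 and 8.75 CPM in U266 among lesion lines, and 0.865 CPM in KMS34, a median of 9.98 and 84.2 CPM in KMS12BM among the others. Its log2 fold change of -2.43 (SE 0.82) had an unadjusted p of 0.00766 and an adjusted p of 0.999743, and it was singled out after its values were seen.

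TRAF2 recruits the cIAP proteins to NIK. Its start region (chr9:139776215-139777296) had 13.3, 27.8 and 34.4 CPM in lesion lines and 0.359, 17 and 28.1 CPM in other lines, with 5 of 6 lesion lines above the median of the others. Here the log2 fold change was 0.67 (SE 0.44, adjusted p = 0.999743), it lay between 0.57 and 0.81 without each line in turn, and the locus summed to 0.64 (SE 0.28, adjusted p = 0.958). L363 (13.3 CPM) was the lowest lesion line, and H1112 (0.359 CPM), Karpas620 (5.55 CPM) and OPM2 (7.83 CPM) were the lowest other lines. The intragenic region of TRAF2 printed above belongs to a peak at chr9:139796106-139797237, in which accessibility was split among the other lines. It was a peak in all 6 lesion lines, at 25 to 62.5 CPM (median 35.6), and in 7 of the 13 other lines. It was nearly closed in H1112 (0.719 CPM), KMS34 (0.865 CPM), OPM2 (1.04 CPM), Karpas620 (1.39 CPM) and XG-6 (3.12 CPM), and reached 54.2 CPM in OCIMY5. The log2 fold change of 0.91 (SE 0.68, adjusted p = 0.999743) did not pass, and this region too was chosen after its values were seen.

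MAP3K14, the gene of NIK, had 30.5, 54 and 73.4 CPM at its start (chr17:43394084-43395114) in lesion lines and 29.2, 40.5 and 71.5 CPM in other lines. Of the 6 lesion lines 5 were above the median of the others and KMS20 was the lowest, yet the ranges nearly coincided. It differed by a log2 fold change of 0.14 (SE 0.22, adjusted p = 0.999743) and turned to -0.14 with local offsets. Within 100 kb of the start, lesion lines had 0.83 times (LP1) to 1.19 times (L363) the median line and other lines 0.467 times (KMS21BM) to 1.54 times (OCIMY5). CYLD, a deubiquitinase that restrains NF-kB signalling, had 35.5, 62 and 89.2 CPM in lesion lines and 23, 69 and 122 CPM in other lines, a log2 fold change of -0.25 (SE 0.32, adjusted p = 0.999743). Of the remaining regulators of this list, OTUD7B, a deubiquitinase of TRAF3, was higher at its start in all 6 lesion lines than the median of the other lines, with 28.8, 42 and 48.7 CPM against 13.6, 24.2 and 61.6 CPM. Its log2 fold change of 0.49 (SE 0.28, adjusted p = 0.999743) equalled the median of 0.49 over the regions around it on chromosome 1.

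The receptors of the pathway did not differ between groups past the threshold. BCMA (TNFRSF17), a receptor of plasma cells for BAFF and APRIL, had 24.6, 42.4 and 50 CPM at its start in lesion lines and 16.3, 29.8 and 52.1 CPM in other lines, and 5 of 6 lesion lines lay above the median of the others. Its log2 fold change was 0.28 (SE 0.25, adjusted p = 0.999743), and -0.01 with local offsets. TACI (TNFRSF13B), the other receptor shared by both ligands, had 1.37, 5.63 and 29.6 CPM in lesion and 0.254, 1.04 and 78.9 CPM in other lines. All 6 lesion lines were above the median of the others, but the highest values were those of KMS26 (78.9 CPM) and, far below it, L363 (29.6 CPM). The log2 fold change of 0.01 (SE 1.03, adjusted p = 0.999743) therefore rested on single lines, being 1.62 without KMS26 and -0.92 without L363. CD40, which binds CD40 ligand on T cells, had 2.04, 4.41 and 20.4 CPM in lesion lines and 0, 2.09 and 20.2 CPM in other lines, a log2 fold change of 0.61 (SE 0.69, adjusted p = 0.999743) that was -0.03 without KMS20. The start regions of LTBR, the lymphotoxin beta receptor, and of TNFRSF13C, the BAFF receptor, were not tested. They reached 3.22 and 1.38 CPM in lesion lines and 4.13 and 7.1 CPM in other lines. Of 11 receptors 7 were tested at their starts, 5 with a positive and 2 with a negative log2 fold change (-0.63 to 0.92). Of 7 ligands only LTA, which encodes lymphotoxin alpha, could be tested at its start, at 0.02 (SE 0.52), and the loci of 5 ligands ranged from -1.27 to -0.09 with none passing. The other ligands had start regions too low to test or, for TNF and TNFSF13B, no region within 2500 bases.

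Among the Rel factors, which bind DNA in pairs, the widest spread was at NFKB1, the gene of p105 and p50 of the canonical pathway. Its start region (chr4:103421428-103422655) had 11.2, 16 and 30.4 CPM in lesion lines and 9.95, 19 and 222 CPM in other lines. The value of 222 CPM belonged to OCIMY5, and the next highest other line was KMS12BM with 47.3 CPM. The log2 fold change of -0.999 (SE 0.58, adjusted p = 0.999743) became -0.24 without OCIMY5. NFKB2, the gene of p100, had 38.7, 62.6 and 88.2 CPM in lesion lines and 25.6, 52 and 88 CPM in other lines, with 5 of 6 lesion lines above the median of the others and RPMI8226 the lowest. Its log2 fold change was 0.24 (SE 0.25, adjusted p = 0.999743). RELB, the partner of p52, had 26.9, 39.3 and 62.7 CPM against 13.2, 33.7 and 64.9 CPM and a log2 fold change of 0.12 (SE 0.26), which was -0.04 without L363. The start regions of NFKB2 and RELB were peaks in all 19 lines, with and without a reported lesion. REL differed by 0.22 (SE 0.22) and RELA by -0.12 (SE 0.28), and RELA was 0.06 without KMS20. The adjusted p was 0.999743 for each of these start regions.

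Of the 6 kinases, 5 were tested at their starts, 4 with a positive and 1 with a negative log2 fold change (-0.16 to 0.47). IKK-alpha (CHUK), which phosphorylates p100, had 6.89, 20 and 33.9 CPM in lesion and 3.12, 17.7 and 32.4 CPM in other lines, a log2 fold change of 0.26 (SE 0.38, adjusted p = 0.999743). All 9 inhibitors were tested, with 7 positive and 2 negative values between -0.14 and 0.60. A20 (TNFAIP3), which shuts off canonical signalling, had 38.2, 45 and 93.5 CPM in lesion lines and 14.9, 56.9 and 80.7 CPM in other lines, a log2 fold change of 0.02 (SE 0.27). IkB-alpha (NFKBIA), which holds Rel dimers in the cytoplasm, had 26.5, 50 and 93.3 CPM and 28.8, 42.8 and 108 CPM, a log2 fold change of 0.03 (SE 0.32). IkB-epsilon (NFKBIE) was above the median of the other lines in all 6 lesion lines, at 20.2, 28.7 and 35.2 CPM against 13.7, 17.7 and 41.8 CPM, yet its log2 fold change of 0.35 (SE 0.27) did not pass. The adjusted p was again 0.999743 for each.

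No gene of the list of NF-kB targets differed past the threshold. Of 57 targets, 15 of which also stand in the pathway lists, 35 start regions and 50 loci were tested and 0 passed in edgeR. At an unadjusted p below 0.05, 0 start regions passed, beside 1.38% of all protein-coding start regions higher and 2.51% lower, and 1 of the 50 loci (2%) was higher, beside 2.01% of all loci. The median log2 fold change was 0.03 at the starts, beside 0.02 over all protein-coding start regions, and 0.11 at the loci, beside -0.03 over all loci. The values at single targets were spread to both sides. IL6, a growth factor of myeloma cells, had 9.18, 19.1 and 54.9 CPM in lesion lines and 5.21, 14.9 and 39.3 CPM in other lines (log2 fold change 0.45, SE 0.40). SOD2, a mitochondrial superoxide dismutase, had 36.7, 59.4 and 92.9 CPM and 22.6, 74.9 and 119 CPM (-0.24, SE 0.29). BCL2L1, an inhibitor of apoptosis, had 44.9, 63.2 and 101 CPM and 25.4, 56.9 and 77.3 CPM (0.11, SE 0.20). ICAM1, an adhesion molecule, had 6.43, 16.8 and 24.1 CPM and 1.04, 10.8 and 29.9 CPM (0.44, SE 0.43). These 4 targets, like OTUD7B, CHUK and NFKBIE above, were chosen as examples after their values were seen.

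The signal of whole neighbourhoods of pathway genes was examined in each line, as the sum over regions within 100 kb of the start against the median of the 19 lines. Of 276 pairs of a pathway gene and a lesion line, 2 (0.725%) lay above 3 times or under 0.333 times the median, both in KMS20. For all 17832 genes the share was 1.7% in lesion lines. Of 598 pairs with other lines, 5 (0.836%) did so, beside 2.31% for all genes. Over all 19 lines the share was 2.12% for all genes, so extreme values were not more frequent at pathway genes. These pairs are described because 4 of the 5 in other lines were gains at genes of the pathway. In other lines gains alone numbered 4 of 598 pathway pairs and 1364 of 231816 pairs over all genes, a similar share. OCIMY5 had 12.3 times the median line at NFKB1, the highest ratio of all 17832 genes in that line, and KMS26 had 10.2 times at TNFRSF13B, again the highest of that line. OCIMY5 also had 5.28 times the median at TNFRSF11A, the gene of RANK, and 4.28 times at TRAF3, and H1112 had 0.299 times at TNFAIP3.

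**Figure D3:**
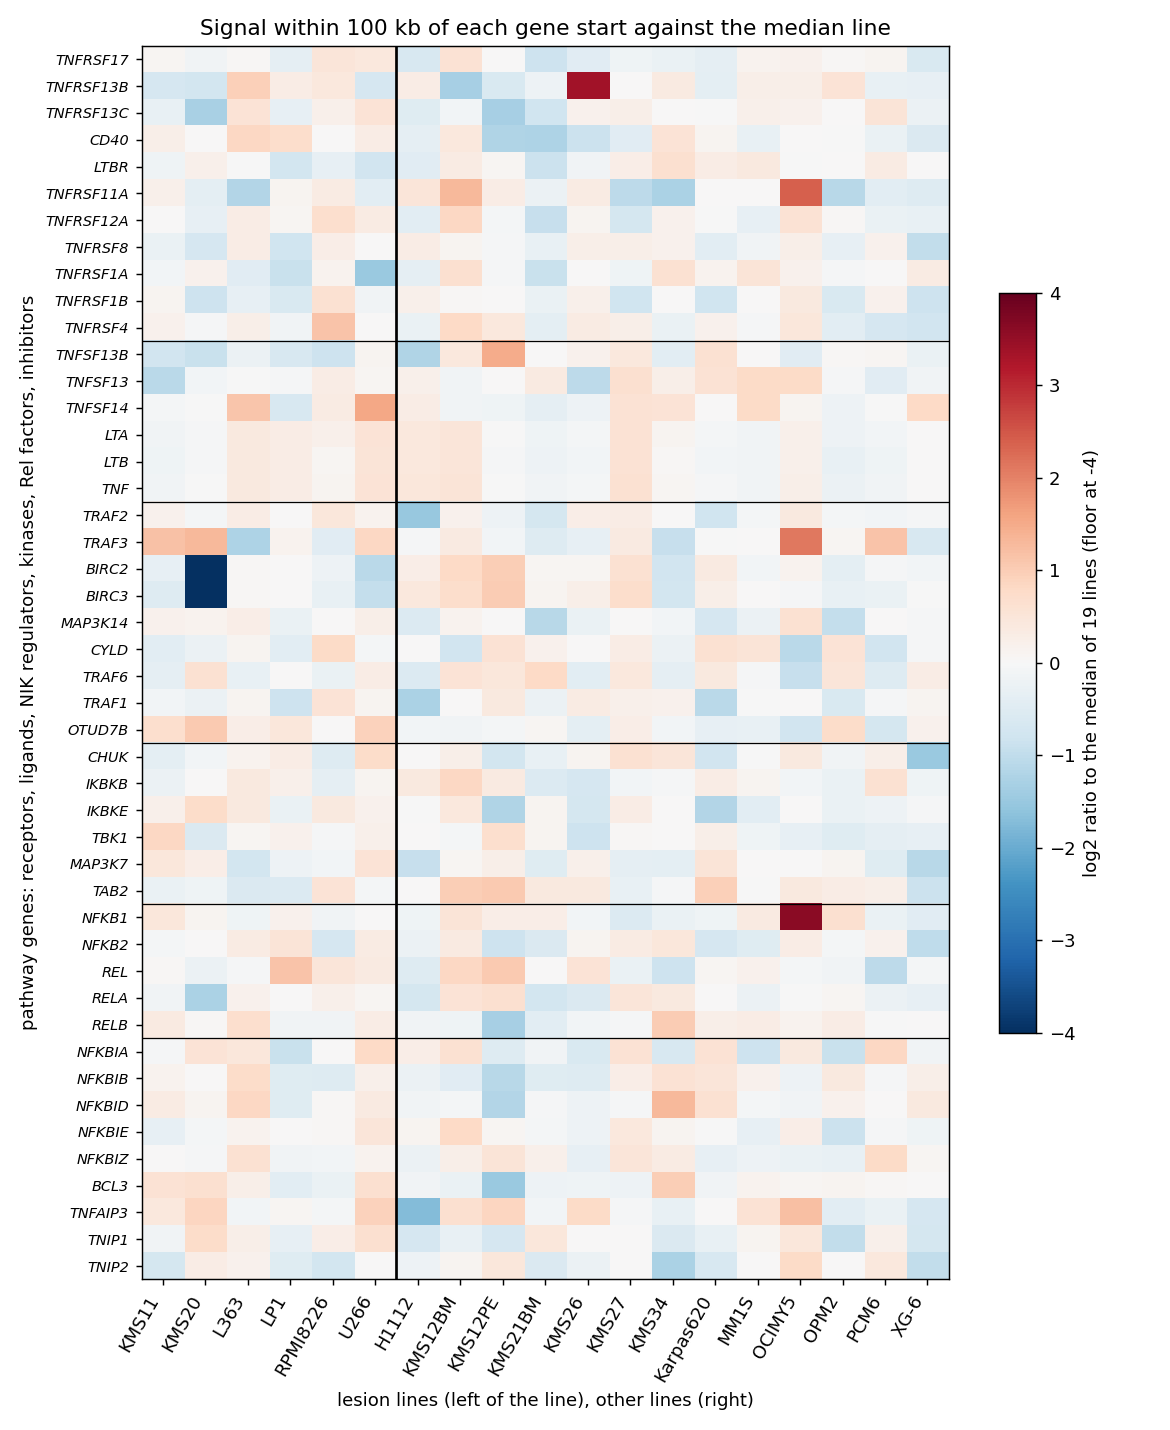
Log2 ratio of the signal within 100 kb of each of 46 pathway gene starts to the median of 19 lines, with genes in rows by list and lines in columns, lesion lines left of the vertical bar. The strongest colours are the low BIRC2 and BIRC3 of KMS20 (drawn at the floor of -4), the high NFKB1 of OCIMY5 and the high TNFRSF13B of KMS26.

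Both gains covered stretches of several genes. In OCIMY5 the raised signal ran from -1600 to 200 kb relative to the start of NFKB1, over 4 protein-coding genes and 120 regions. OCIMY5 had 6258 CPM there, or 0.626% of its library, while the other 18 lines had 495 to 1009 CPM (median 754), an 8.3-fold difference. The last region of NFKB1, over its final exons (chr4:103537433-103538250), had 391 CPM in OCIMY5. In KMS26 the most strongly raised signal ran from -1400 to 500 kb relative to the start of TNFRSF13B, and lesser gains continued beyond it. The stretch up to 500 kb held 26 protein-coding genes and 122 regions, with 4369 CPM against 329 to 978 CPM in the other 18 lines (median 627), a 6.97-fold difference. Neither line is on the list of reported lesions. Extra copies and more open chromatin cannot be told apart, and the ends of the stretches are those of bins of 100 kb.

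**Figure D4:**
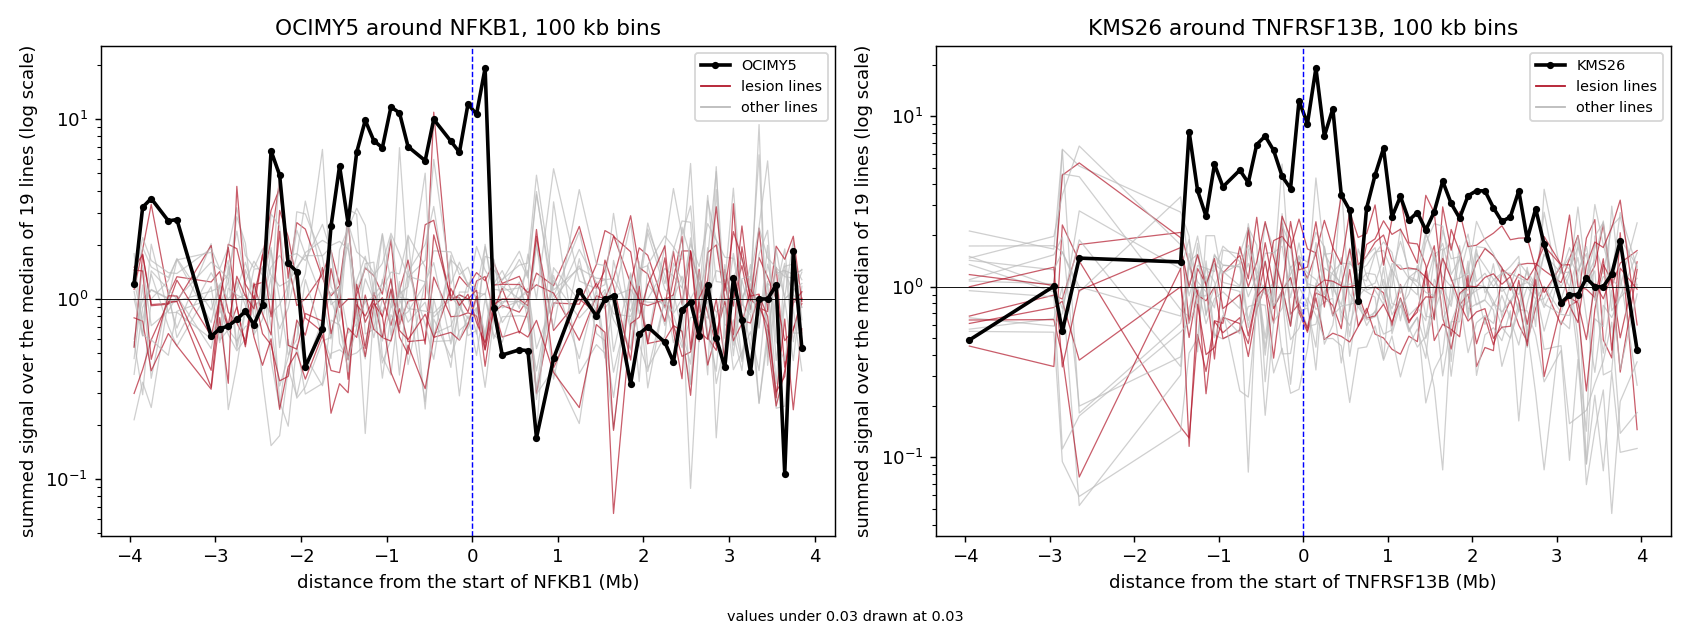
Summed signal in 100 kb bins from -4 to 4 Mb around the starts of NFKB1 (left, OCIMY5 in black) and TNFRSF13B (right, KMS26 in black), as a ratio to the median of 19 lines on a log scale, with lesion lines in red, other lines in grey and values under 0.03 drawn at 0.03. OCIMY5 drops sharply after 200 kb, and KMS26 is highest around the start of TNFRSF13B and remains raised for some distance beyond 500 kb.

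Outside promoters, regions that hold the κB consensus were shifted toward the lesion lines relative to regions without it, while a measure per line did not separate the groups. Of 33449 such regions tested, 3515 held the consensus. Their median log2 fold change was 0.05, against -0.13 for the regions without it. This difference of 0.18 was 0.05 when only regions with at least 10 counts in every library were kept, and 0.12 without KMS20. At an unadjusted p below 0.05, 2.9% of regions with and 1.17% of those without the consensus were higher in lesion lines, and 1.51% and 3% were lower. The difference in the share of higher regions was present in each of 4 classes of GC content, of nearly equal size, with 2.97% and 0.651% in the lowest, 4.06% and 0.915%, 2.77% and 1.43%, and 2.63% and 1.8% in the highest. The medians were 0.05 with and -0.25 without the consensus in the lowest class, but 0.04 and 0.007 in the highest. That highest class held 1864 of the 3515 regions with the consensus. In it 1.34% of regions with and 1.35% of those without the consensus were lower. Regions with a GC box (GGGCGG, on both strands), which can overlap the κB consensus, were also more often higher, 2.41% against 1.22% without it. They were less often lower, 1.52% against 3.02%, and their median log2 fold change was 0.03 against -0.13. The shift was thus not particular to the κB consensus. Regions with the AP-1 sequence TGANTCA, on both strands, had 1.64% against 1.3% higher and 3.58% against 2.72% lower. Outside promoters 11.4% of regions held a GC box and 14.8% the AP-1 sequence. Regions are not replicates, and these shares carry no test.

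The test over lines used the percentage of a line's counts outside promoters that fell in regions with the κB consensus. It was 9.78% in RPMI8226, 9.81% in KMS11, 11.3% in L363, 11.5% in LP1, 12.5% in U266 and 12.8% in KMS20, with a mean of 11.3% ± 1.28 (SD, n = 6) over lesion lines. In the other lines it was 6.49% in H1112, a median of 10.8% and 12.6% in KMS12BM, with a mean of 9.94% ± 2.06 (SD, n = 13). The low tail of the other lines (H1112, OPM2 at 7.45%, KMS34 at 7.5%, PCM6 at 8.11%, MM1S at 8.79% and XG-6 at 9.59%) lay below every lesion line, and the remaining 7 other lines lay within the range of the lesion lines. The difference of 1.33 percentage points had p = 0.166 in a two-sided exact permutation test, 0.235 adjusted over 4 tests. The mean over the 4 GC classes differed by 0.941 points (p = 0.176), the share for the GC box by 1.32 points (p = 0.106) and that for AP-1 by -0.877 points (p = 0.525), with exact permutation tests and adjusted values of 0.235, 0.235 and 0.525. H1112, the lowest of all lines, was also the deepest library, at 5564534 counts, while KMS20, the highest, had 4653969, and the part of depth in the shares was not tested. These measures were added after the first results had been seen. KMS12BM and KMS12PE, from the same patient, entered these tests as separate lines.

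**Figure D5:**
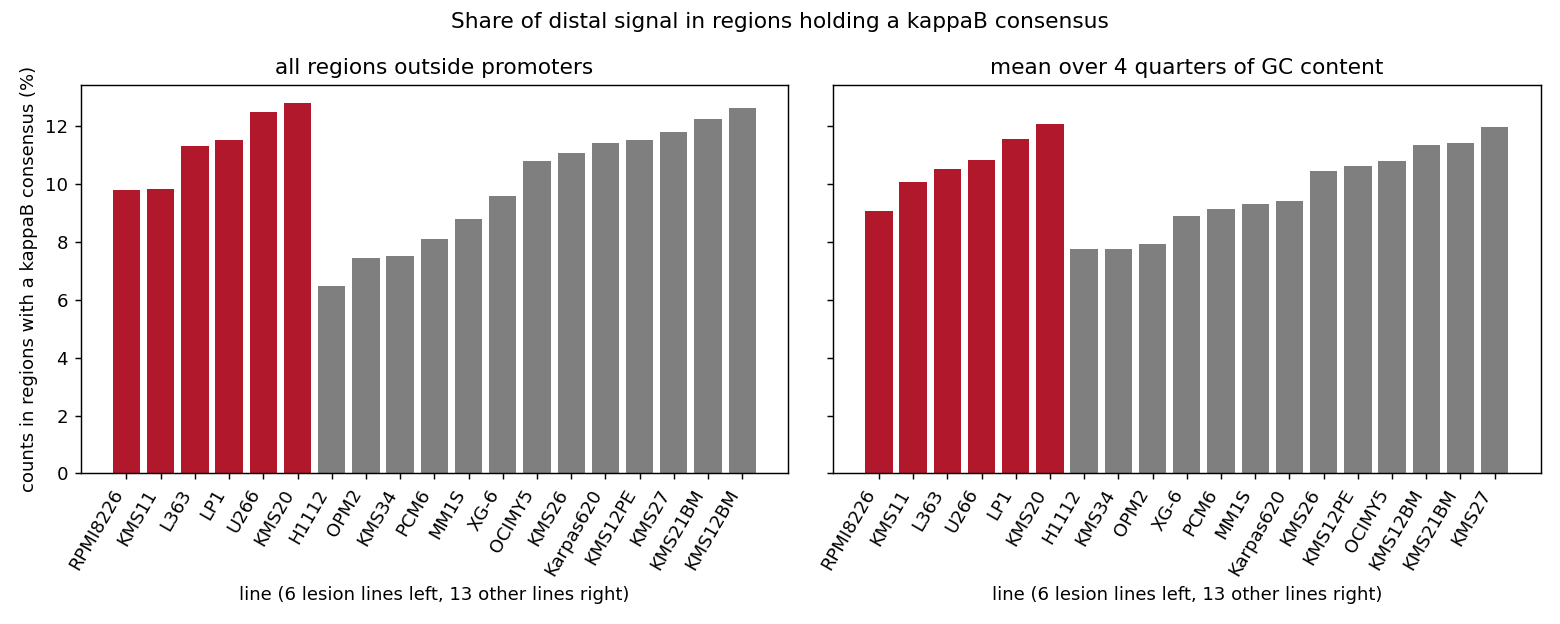
Percentage of counts outside promoters that fall in regions with the κB consensus, for all regions (left) and as the mean over 4 classes of GC content (right), 1 bar per line from an axis starting at 0, lesion lines in red and other lines in grey. Lesion lines span 9.78% to 12.8% and other lines 6.49% to 12.6% on the left, and the groups overlap in both panels.

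Regions with no overlap between the groups were rare. Only 1 tested region (0.00192%) was higher in every lesion line than in every other line, and 0 (0%) were lower. It lies upstream of MUC1 (chr1:155162818-155163824), which encodes a membrane mucin carried by many tumours. Lesion lines had 34.5, 40.7 and 56 CPM and other lines 11.5, 19 and 32.4 CPM. RPMI8226, at 34.5 CPM, was just above KMS26, the highest other line at 32.4 CPM. The log2 fold change was 0.94 (SE 0.23, unadjusted p = 0.000539, adjusted p = 0.999743), while regions around it had a median of 0.44. Of 140713 regions that were a peak in any of the 19 lines, 7 (0.00497%) were peaks in at least 5 lesion lines and at most 1 other line. 1 of them was a peak in all 6 lesion lines and in none of the 13 others, the intronic region of RHEB shown above (chr7:151169965-151170537). RHEB is a GTPase that activates mTORC1. KMS11 had 49.6 CPM there, L363 23.5, LP1 20, U266 9.84, RPMI8226 8.97 and KMS20 2.58 CPM. The other lines had 0 to 11.6 CPM with a median of 2.1, and PCM6, the highest at 11.6 CPM, lay above 3 of the lesion lines, so the groups overlapped in counts. The log2 fold change was 2.66 (SE 0.63, unadjusted p = 0.000353, adjusted p = 0.999743). KMS18, left out of both groups, had 21.3 CPM. MUC1 and RHEB were named after their values were seen.

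The 10 regions with the smallest p were mostly higher in lesion lines (9 of 10) and none passed. At a region at MIR5698 (chr1:154076903-154077469) lesion lines had 5.1 to 40 CPM, from L363 to KMS11, and other lines 0.93 to 7.3 CPM, a log2 fold change of 2.2 (SE 0.46). The regions around it had a median log2 fold change of 0.459. The start region of EDNRB, the endothelin B receptor, spanned 0.645 CPM in KMS20 to 101 CPM in U266 among lesion lines and 0.433 to 10.4 CPM among the others (3.10, SE 0.72, and 1.79 without U266). The region at NKX2-3, a homeobox factor of lymphoid tissue, reached 13.9 CPM in U266 and was 0.944 CPM in RPMI8226, against 0 to 5.15 CPM in the others (2.65, SE 0.61). ESRP1, a splicing regulator of epithelial cells, had 3.68 to 55.2 CPM and 0.595 to 10.4 CPM (2.68, SE 0.58). The other regions higher in lesion lines were nearest LINC00461 (3.18, SE 0.69), CDH26 (2.17, SE 0.48), JAKMIP2 (2.48, SE 0.57), RNY4P16 (2.5, SE 0.58) and RNU6-1071P (1.05, SE 0.24, but 0.52 with local offsets), and the one that was lower was 95981 bases from RP11-65D24.1 (-2.79, SE 0.59). In each of the 10, at least 1 line of a group lay within the range of the other. Among the 10 loci with the smallest p, CLDN3, a tight junction gene, had 24.5, 51.7 and 79.6 CPM in lesion lines and 2.02, 10.3 and 33.6 CPM in other lines (2.04, SE 0.45, adjusted p = 0.852). KLRG2 had 3.04, 7.8 and 77.5 CPM against 0, 2.4 and 8.22 CPM (2.92, SE 0.63, and 1.87 without L363). AP001055.1, CR812485.1, AC009305.2, RP11-89F3.2 and AC111200.1 were higher in lesion lines by 1.65 to 2.24, of which AC111200.1 was 0.92 and AC009305.2 was 1.16 without RPMI8226 and CR812485.1 was 1.01 without KMS20. With local offsets RP11-89F3.2 was 1.05 and CR812485.1 was 1.49, and with a window of 10 kb AC111200.1 was 1.16. RP11-412P11.1 (-3.28), DYNC2H1 (-1.21) and CCDC15 (-0.95) were lower, all with the same adjusted p of 0.852. DYNC2H1 and CCDC15 lie on the long arm of chromosome 11, and with local offsets they were -0.16 and -0.37.

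A part of the nominally different regions lay in a few chromosome stretches. On chromosome 1, between 140 and 160 Mb, the median log2 fold change of 707 tested regions was 0.44, and the stretch held 109 of the 756 nominally higher regions (14.4%) but 1.36% of all tested regions. Lesion lines had 1.07 times (L363) to 1.78 times (KMS20) the signal of the median line there and other lines 0.648 times (OCIMY5) to 1.58 times (OPM2). On chromosome 11, between 80 and 140 Mb, the median was -0.68 over 1191 regions, and the stretch, which contains BIRC2 and BIRC3, held 255 of the 1353 nominally lower regions (18.8%) but 2.28% of all tested regions. Lesion lines had 0.467 times (U266) to 0.978 times (LP1) and other lines 0.773 times (KMS34) to 1.5 times (H1112). On chromosome 12, between 20 and 40 Mb, the median was -0.72 over 269 regions. That stretch held 46 of the nominally lower regions (3.4%) but 0.516% of all tested regions. Its signal ran from 0.575 times (LP1) to 0.985 times (KMS20) the median line in lesion lines. In other lines it ran from 0.669 times (OCIMY5) to 3.01 times (KMS26). On chromosome 13, between 80 and 120 Mb, the median was -0.65 over 444 regions. There 51 regions were nominally lower (3.77% of all such regions) and 1 was higher, beside 0.851% of all tested regions. Its signal ran from 0.639 times (KMS20) to 1 times (U266) the median line in lesion lines. In other lines it ran from 0.589 times (KMS34) to 1.59 times (Karpas620). The stretches were chosen after their values were seen. OTUD7B, MUC1 and the regions at MIR5698 and nearest RNU6-1071P lie in the first, and the region nearest RP11-65D24.1 lies in the last. Whether copy number sets these values was not tested.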

How the data were processed

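ATAC-seq counts per region were deposited by the authors for 28 libraries. Per the submitters' processing notes, the tools were Bowtie2 2.2.6, SAMtools 1.7 and MACS2 2.1.0.20151222 with build GRCh37. PCR duplicates were marked with SAMtools, per methods shared with ChIP-seq, and whether they were removed or reads shifted for Tn5 is not given in the sources used here. A deposited table of small whole numbers, which the files do not define, was read as the peaks of each library. Depth ranged from 1602855 to 5564534 counts over 19 lines. Lesion status came from the list of lines, and the members and gene lists were chosen with earlier results of these data known.

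Raw counts were tested with edgeR 4.0.16 in R 4.3.3 (TMM, filterByExpr by group, robust quasi-likelihood fit, Benjamini-Hochberg adjustment over all regions or loci). Standard errors (SE) were derived as the absolute log2 fold change divided by the square root of the test's F statistic. DESeq2 1.42.0, other normalizations, filters, windows, a depth covariate, local offsets (median ratio within 2500000 bases), summing KMS12BM with KMS12PE and leaving out each line were alternatives. Start regions lay within 2500 bases of GENCODE gene starts. Genes named were those of a fixed list plus the 10 smallest p, since none passed, and the few others that the text says were chosen after their values were seen. The fit was tested on simulated data. Only autosomes were in the files, so IKBKG was not analysed here, and RPM values were not used.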

Additional observations from a re-analysis of the deposited data

Results flagged for a closer look

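Among 45 values screened over the 6 lesion lines, 6 had 1 line farther from the rest than Dixon's 95% limit on the log2(CPM + 1) scale. Chance flags about 1 in 20 such groups if they are independent. These were not, as starts and loci of the same gene overlap and the regions and loci with the smallest p were included. The 6 flags can therefore not be set against that rate. Library measures were screened on their own scale. KMS20 stood apart in 4 of the 6. It had 0 CPM at the start of BIRC2, where the next lesion line had 37.2 CPM, 0 CPM at the start of BIRC3, where the next had 39.1 CPM, and 5.59 CPM at the locus of BIRC2, where the next had 53.9 CPM. It also had 22.8 CPM at the start of REL, the gene of c-Rel, where the next lesion line had 44.1 CPM. L363 had 13.3 CPM at the start of TRAF2, below the next lesion line at 24.8 CPM. RPMI8226 had 126.5 CPM at the locus of AC111200.1, above the next at 23.9 CPM.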

How the results depend on the processing

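The number of pathway and target genes that passed was 0 with edgeR and with DESeq2 under every alternative run, for start regions and for loci. The number of regions that passed was 1 with DESeq2 (the region nearest RP11-65D24.1, -2.80, adjusted p = 0.0147), 1 with no filter on low counts (STOX2, adjusted p = 0.00688) and 0 to 1 without each line, the 1 being STOX2 without RPMI8226 (adjusted p = 0.00266). The region nearest RP11-65D24.1 lies in the lowered stretch of chromosome 13, where the regions around it had a median of -0.56. The number of loci that passed was 2 with DESeq2 (RP11-412P11.1, -3.33, and WTAPP1) and 0 without each line. Regions with an unadjusted p below 0.05 numbered 9694 with no filter, 695 with at least 10 counts in every library and 3179 without KMS20, and loci 2140 with no filter and 807 with that minimum. Local offsets turned the sign at the starts of BIRC3 (0.13), MAP3K14 (-0.14), TNFRSF17 (-0.0135) and TNFAIP3 (-0.0515), and the single nearest region that of the TNIP1 locus (-0.0083). With KMS12BM and KMS12PE summed, TNFRSF13B was -0.10 and the difference in log2 total counts -0.0234. Without each line in turn, the sign turned in at least 1 case for TNFRSF13B (-0.92 to 1.62), TNFAIP3 (-0.17 to 0.12), NFKBIA (-0.20 to 0.19), RELA (-0.239 to 0.0623), RELB (-0.041 to 0.239) and CD40 (-0.0318 to 1.14). The same held for log2 total counts (-0.147 to 0.104), peaks per line (-6331 to 758) and the promoter percentage (-0.0954 to 3.1). None of these passed a threshold, and the cause was not tested. The median difference of 0.18 between regions with and without the κB consensus stayed positive, between 0.12 and 0.24 without each line and between 0.05 (at least 10 counts in every library) and 0.20 under the others. No paired analysis was possible because replicate numbers only name the lines. Lesions and other differences between lines cannot be told apart, each line was assayed once, and the standard errors leave moderate differences undetectable.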

Other observations

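Lenalidomide (10 µM, day 3), a drug that has cereblon degrade IKZF1 and IKZF3, was given to 6 of these lines, of which L363 and RPMI8226 are lesion lines. The percentage of counts outside promoters in regions with the κB consensus was higher after the drug in 6 of 6 lines. It went from 11.3% to 12% in L363, from 9.78% to 10.4% in RPMI8226, from 11.8% to 14.1% in KMS27, from 11.4% to 12% in Karpas620, from 8.79% to 9.86% in MM1S and from 7.45% to 8.15% in OPM2. The mean difference was 0.997 percentage points ± 0.691 (SD, n = 6), with p = 0.03125 in a two-sided exact sign-flip permutation test, the smallest it can give, and 0.0625 adjusted over 4 tests. As the mean over 4 classes of GC content the difference was 0.783 points, higher in 6 of 6 lines. AP-1 was higher in 2 of 6 lines (p = 0.281, exact permutation test) and the GC box in 3 of 6 (p = 0.719, exact permutation test). The intragenic region of TRAF2 had 25 CPM in untreated and 49.9 CPM in treated RPMI8226, and 28.6 and 31.4 CPM in L363. The intronic region of RHEB went from 8.97 to 20.2 CPM in RPMI8226 and from 23.5 to 41 CPM in L363, and it had at most 6.53 CPM in the 4 other treated lines. The treated RPMI8226 library held 4248017 counts and the untreated one 2117764, and the part of depth in these values was not tested. Each line has 1 library per condition, and these comparisons were made after the values were seen.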
